A study of Mus musculus with 8 samples.

Results

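Potassium channel genes were read out in whole cerebellum of 4 bigenic and 4 control mice, and the members described here are 75 of the 24060 genes in the count table. Members were taken by name: 96 symbols began with Kcn, a subfamily letter code and a number, 2 of these (Kcnj10 and Kcnj16, the inward rectifiers of astrocytes) were set aside, and 75 of the other 94 reached 10 counts in at least 4 of the 8 libraries. The remaining 19 stayed below that minimum. Bigenic mice carried CalExflox and Aldh1l1-Cre/ERT2, a Cre recombinase driven by an astrocyte promoter and activated by tamoxifen. Control mice carried CalExflox alone. Every animal of both groups had received 1 dose of tamoxifen (75 mg/kg, intraperitoneal) 5 days before the tissue was taken, so the controls also carry the floxed allele and the drug. CalEx is a plasma membrane calcium pump that lowers calcium inside the cells that make it, and the Cre is meant to switch it on in astrocytes, whereas most of the channels described here are best known in neurons. Age, sex and genetic background of the mice are not given in the sources used here, and no group carried Cre without CalExflox.

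Potassium channels let potassium leave or enter cells and so set resting potential, spike shape and firing rate. Voltage-gated alpha subunits assemble as tetramers that open on depolarisation, inward rectifiers pass current best near or below the resting potential, two-pore domain channels carry leak current, and calcium- or sodium-activated channels couple ion entry to repolarisation. In the cerebellum, granule cells are known for A-type and leak currents, Purkinje cells for fast repolarising and calcium-activated currents, and basket cell terminals for Kcna channels. Auxiliary subunits have no pore of their own and change the gating or the surface delivery of the pore-forming subunits.

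The libraries held between 35208460 and 38293012 counted reads each. Levels below are CPM, read counts relative to a library size that was scaled by the trimmed mean of M values (TMM), and levels compared between genes are the deposited FPKM, which are also divided by gene length and carry no TMM scaling. Pcp2, a defining marker of Purkinje cells, was between 631 and 676 CPM in bigenic and between 541 and 644 in control libraries. Some other marker lists differed without overlap in their summed CPM. The Bergmann glia and astrocyte sum was between 8782 and 10018 in bigenic and between 7126 and 7619 in control libraries, with 6 of 13 markers tested higher and 3 lower. Glul differed most in CPM (means of 2742 and 1367), so this sum leans on 1 gene and does not show a shift of the whole list. The interneuron sum was between 1520 and 1651 in bigenic and between 1333 and 1386 in controls. Most of it was Pvalb (means of 1107 and 918 CPM). Of the 10 interneuron markers 3 tested higher and 0 lower, and 5 estimates were positive, so the sum does not stand for the whole list. The endothelial sum was, in the same order, between 214 and 234 and between 248 and 280, with 3 of 9 markers lower and 0 higher. In the test described below, 69.2% of the astrocyte, 30.0% of the interneuron and 33.3% of the endothelial markers passed, beside 44.3% of all genes tested. The part of these marker lists in the results below was not tested. Choroid plexus transcripts were not evenly spread, with Ttr at 4.62, 2.43, 2.75 and 2.25 CPM in bigenic libraries 1 to 4, against 300.2, 2360, 2961 and 2.76 CPM in controls 1 to 4. Of 8 brainstem and deep nuclear markers, control library 4 stood apart in Slc17a6, a vesicular glutamate transporter, at 110 CPM against 10.2 to 21.8 CPM in the other libraries. The list did not move as a whole: in that library Slc6a5 was lowest of all at 7.12 CPM, and Spp1 (29.4 CPM), Nefh (114 CPM) and Tph2 (1.27 CPM) were within the range of the others. Because the tissue is bulk, fewer cells of a type and less RNA per cell cannot be told apart in any result below.

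Of the 75 members, 74 entered the test, and 23 of these passed it: 16 were higher and 7 were lower in bigenic than in control cerebellum (edgeR quasi-likelihood test, Benjamini-Hochberg adjusted p under 0.05 over all genes tested, n = 4 libraries per group). That is 31.1% of the members tested, set against 44.3% of all 15186 genes tested (6734 genes). By direction, 21.6% of the members were higher and 9.46% lower, beside 21.4% and 22.9% of all genes. The median log2 fold change, bigenic over control, was 0.06 over the members and -0.004 over all genes tested. In 16 members, or 21.6%, the CPM of the 2 groups did not overlap, beside 40.7% of all genes. A call with a difference over 1.5-fold was made for 10 of the 74 members tested (13.5%, beside 19.5% of all genes), with 5 higher (Kcng2, Kcne4, Kcnk9, Kcnk5 and Kcnc1) and 5 lower (Kcne2, Kcnj13, Kcnk13, Kcnb2 and Kcnj9). Of the 51 members tested but not called, 45 had an estimated difference under 1.5-fold, 24 of the 51 estimates being positive and 27 negative.

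Among 34 voltage-gated alpha subunits 9 rose and 1 fell, with a median log2 fold change of 0.11. Among 9 inward rectifiers 0 rose and 2 fell in edgeR (median -0.14), with 1 more at an unadjusted p under 0.05 (Kcnj6), which DESeq2 called higher and limma did not. Among 10 two-pore domain channels 2 rose and 1 fell (median 0.14). Of 7 channels classed by gene name as calcium- or sodium-activated 2 rose and 1 fell (median -0.11, the value of Kcnu1). Of 12 auxiliary subunits tested 3 rose and 2 fell (median 0.15). Of the 2 noncoding transcripts matched by name 0 passed the test in edgeR, DESeq2 or limma, and 0 had an unadjusted p under 0.05. Without controls 2 and 3, the libraries with the most Ttr, 12 of the 23 calls remained (9 higher and 3 lower), and 21.9% of all genes were called. Kcnc2, Kcnh5 and Kcnt2 were added as lower. Each was highest in control library 4, and without that library none of them was called (adjusted p = 0.342, 0.923 and 0.221). Over 19 alternative analyses, 8 of the 23 calls were made every time: Kcna1, Kcnd3, Kcng4, Kcnh1, Kcnk9 and Kcnn2 were higher, and Kcnb2 and Kcnk13 were lower.

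**Figure D1:**
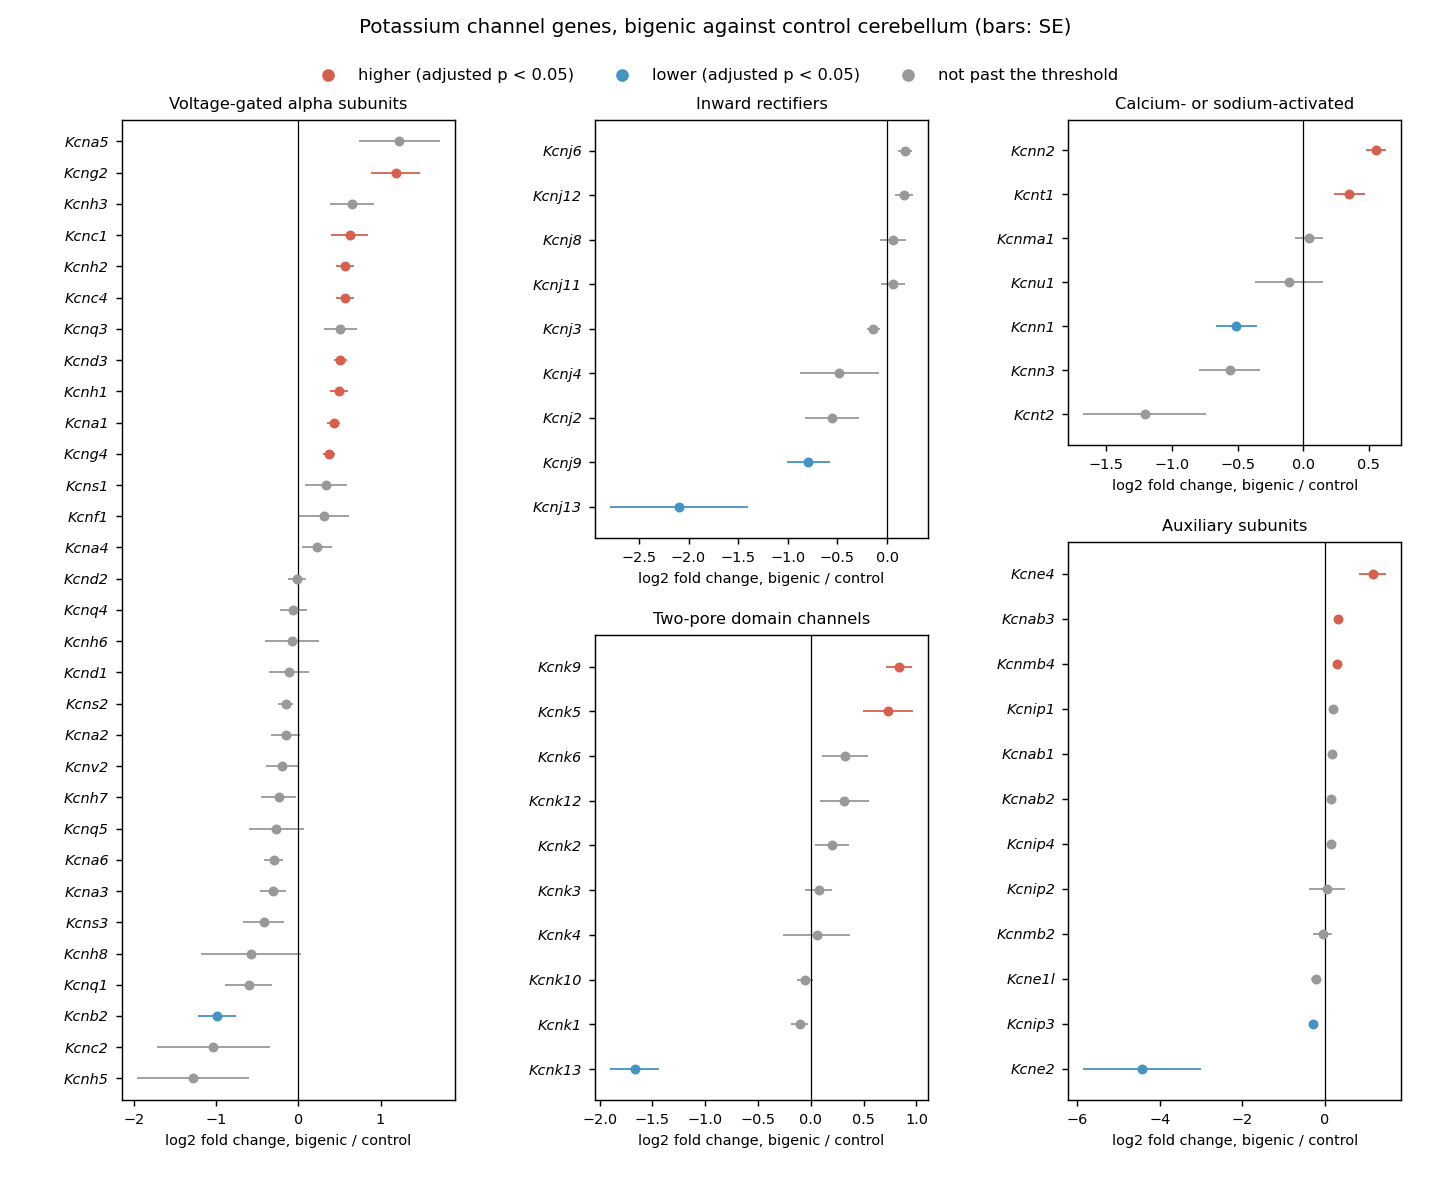
Log2 fold change (bigenic over control) of potassium channel genes by channel class, the x axis differing between panels, with bars for the standard error and colour for the result of the edgeR test. Most called voltage-gated subunits lie to the right of 0, and the 2 called inward rectifiers, Kcnj9 and Kcnj13, lie to the left.

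The promoter windows of 4 called members show the DNA in front of genes that went in different directions. Kcnd3 is a higher member and Kcnk13 the lower member with the smallest p, each with a single RefSeq window. The choice did not cover every called member, and Kcnn2 and Kcnk9, which are higher with a smaller p than Kcnd3, are not shown. Kcne4 and Kcnk5 were added after a motif search because each holds a match. The windows run from 250 bases before to 50 after the RefSeq start on build GRCm38.p6, are read 5′ to 3′ on the strand of the gene, and lie at chr3:105451640-105451939 (plus strand) for Kcnd3, chr12:99964249-99964548 (plus strand) for Kcnk13, chr1:78816661-78816960 (plus strand) for Kcne4 and chr14:20181733-20182032 (minus strand) for Kcnk5. Capitals mark an E-box.
Kcnd3: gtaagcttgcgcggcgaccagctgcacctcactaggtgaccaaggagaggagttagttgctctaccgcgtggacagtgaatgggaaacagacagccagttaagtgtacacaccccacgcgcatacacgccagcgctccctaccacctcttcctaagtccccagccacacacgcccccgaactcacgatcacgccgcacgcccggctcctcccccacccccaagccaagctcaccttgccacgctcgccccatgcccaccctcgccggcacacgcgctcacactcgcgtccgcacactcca
Kcnk13: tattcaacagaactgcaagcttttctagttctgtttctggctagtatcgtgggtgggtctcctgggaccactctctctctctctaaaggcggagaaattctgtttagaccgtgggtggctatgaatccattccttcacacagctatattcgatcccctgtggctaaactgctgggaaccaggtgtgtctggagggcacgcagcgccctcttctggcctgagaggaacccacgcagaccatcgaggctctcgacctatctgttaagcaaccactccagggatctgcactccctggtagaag
Kcne4: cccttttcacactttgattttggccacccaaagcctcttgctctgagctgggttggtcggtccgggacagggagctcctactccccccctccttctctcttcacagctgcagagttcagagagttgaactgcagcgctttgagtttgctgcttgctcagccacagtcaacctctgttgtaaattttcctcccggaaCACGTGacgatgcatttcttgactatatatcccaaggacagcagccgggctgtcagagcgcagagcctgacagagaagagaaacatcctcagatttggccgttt
Kcnk5: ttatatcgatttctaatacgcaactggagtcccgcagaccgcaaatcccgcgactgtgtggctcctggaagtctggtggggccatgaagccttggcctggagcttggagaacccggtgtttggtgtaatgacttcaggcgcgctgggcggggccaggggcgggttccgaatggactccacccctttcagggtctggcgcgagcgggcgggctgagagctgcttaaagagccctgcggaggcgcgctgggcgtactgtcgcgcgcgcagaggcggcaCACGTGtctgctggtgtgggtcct
The Kcnd3 window is rich in CpG (25 CpG, 64.0% G or C), as is that of Kcnk5 (26 CpG, 63.7%), whereas Kcnk13 and Kcne4 have 9 CpG each and 52.7% G or C. Over all 32851 RefSeq promoters the medians were 7 CpG and 52.7%, and over the 75 windows of the 54 members with an entry 10 CpG and 60.3%. A search of both strands looked for 3 motifs. The core of the glucocorticoid response element, ACANNNTGT, was present in 6.67% of member windows and 6.85% of all promoters. The E-box CACGTG was present in 6.67% of member windows and 7.15% of all. The cyclic AMP response element TGACGTCA was present in 0 member windows and 1.79% of all. A match describes letters in a window and not a bound site.

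Kcna subunits form low-threshold channels of axons and terminals. Kcna1 (chr6:126640397-126646384), the founding member, had 435, 527, 444 and 413 CPM in bigenic libraries 1 to 4, against 361, 332, 343 and 317 CPM in controls 1 to 4. All bigenic libraries lay above all controls, with the highest value in bigenic library 2. Kcna1 rose with a log2 fold change of 0.43 ± 0.08 (SE, edgeR adjusted p = 0.00201). Its partners in the same heteromers had means of 316 ± 103 CPM in bigenic and 352 ± 22.6 in control libraries for Kcna2 (SD, n = 4 each), and of 76.6 ± 13.8 and 94.5 ± 10.3 CPM for Kcna6. Neither passed the test (adjusted p = 0.492 for Kcna2 and 0.0596 for Kcna6), but without bigenic library 2, the highest bigenic library for both, Kcna2 had a log2 fold change of -0.40 (adjusted p = 0.00421) and Kcna6 of -0.44 (adjusted p = 0.0026). Kcna1 is flanked on chromosome 6 by Kcna5 and Kcna6, and on chromosome 3 Kcna3, Kcna2 and Kcnc4 lie together, and in each of these clusters 1 of 3 genes was called.

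As a share of the summed FPKM of Kcna1, Kcna2 and Kcna6, Kcna1 took 55.5%, 50.9%, 60.0% and 58.1% in bigenic libraries 1 to 4, against 43.7%, 45.0%, 45.5% and 44.7% in controls 1 to 4. The groups did not overlap, and the Kcna2 share (29.4% ± 3.99 in bigenic and 36.1% ± 0.53 in control libraries) and the Kcna6 share (14.4% ± 0.79 and 19.2% ± 0.94) were below those of the controls in all 4 bigenic libraries. Such shares are formed within a library and do not change with the scaling of libraries. They are given as a description with no test, and the subfamilies were chosen after the values of their members were seen.

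Kcnd subunits carry the subthreshold A-type current. Kcnd3 (chr3:105452330-105674002) had 163, 185, 157 and 152 CPM in bigenic libraries 1 to 4, against 125, 112, 116 and 108 CPM in controls 1 to 4. The groups were apart in every library, and the log2 fold change was 0.51 ± 0.08 (SE, edgeR adjusted p = 0.000498). Kcnd2, the more abundant A-type subunit, averaged 468 ± 77.6 CPM in bigenic and 472 ± 34.6 in control libraries, a log2 difference of -0.01 ± 0.11 (SE, adjusted p = 0.926). The Kcnd3 share of the pair was 18.2% ± 1.13 in bigenic and 13.3% ± 0.88 in control libraries.

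Kcnc subunits make the fast, high-threshold channels of rapidly firing neurons. Kcnc4 (chr3:107438303-107459552) rose, with 50.4, 52.0, 51.4 and 46.9 CPM in bigenic libraries 1 to 4 against 42.0, 33.7, 28.7 and 31.6 CPM in controls 1 to 4. The groups did not overlap and the log2 fold change was 0.56 ± 0.11 (SE, edgeR adjusted p = 0.00177), and 0.55 with the Ttr covariate, which ended the call (adjusted p = 0.0574). Kcnc1 was also called higher, at 223 ± 71.9 CPM in bigenic and 144 ± 36.1 in control libraries (log2 fold change 0.63 ± 0.23 SE, adjusted p = 0.045). Its groups overlapped, bigenic library 2 held the highest value at 325 CPM, and the call was lost in 14 of 19 alternative analyses, among them those without bigenic library 2 (0.38, adjusted p = 0.105), bigenic library 1 (adjusted p = 0.0858), bigenic library 3 (0.0747), control library 2 (0.0855), control library 3 (0.0926) or control library 4 (0.082), and without controls 2 and 3 together (0.188).

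Of the 7 Kcnh genes, relatives of ether-a-go-go, 2 rose. Kcnh2, which encodes the ERG channel, had 32.8, 34.7, 29.2 and 32.6 CPM in bigenic libraries 1 to 4, against 26.6, 20.1, 18.4 and 22.3 CPM in controls 1 to 4 (log2 fold change 0.57 ± 0.11 SE, edgeR adjusted p = 0.00227). Kcnh1, the EAG channel, had 113, 140, 107 and 103 CPM in bigenic libraries 1 to 4, against 82.2, 85.0, 91.0 and 71.2 CPM in controls 1 to 4 (log2 fold change 0.49 ± 0.11 SE, adjusted p = 0.0037). For both, each bigenic library was above each control. Kcnh2 missed the threshold without controls 2 and 3 (0.40, adjusted p = 0.051) and with the Ttr covariate (0.43, adjusted p = 0.122), whereas Kcnh1 was called in every alternative.

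Kcng subunits are silent on their own and change the gating of the Kcnb delayed rectifiers. Kcng4 (chr8:119623854-119635680), at 72.5 FPKM the voltage-gated member with the second highest level after Kcnd2 (103 FPKM), had 322, 314, 301 and 312 CPM in bigenic libraries 1 to 4, against 259, 253, 233 and 221 CPM in controls 1 to 4. It was higher in every bigenic library than in any control, with a log2 fold change of 0.37 ± 0.07 (SE, edgeR adjusted p = 0.00163). Kcng2, a scarce relative at 1.93 ± 0.57 CPM in bigenic and 0.84 ± 0.29 in control libraries, was higher by 1.19 ± 0.29 on the log2 scale (SE, adjusted p = 0.00716), with 1 bigenic library (1.22 CPM) at the level of the highest control (1.22 CPM). The Kcng2 call was lost without controls 2 and 3 (0.88, adjusted p = 0.0909) and with the CPM of Ttr as a covariate (0.69, adjusted p = 0.243).

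Kcnb2 (chr1:15287254-15723750), the 1 voltage-gated alpha subunit that fell, had 3.54, 6.30, 3.11 and 2.56 CPM in bigenic libraries 1 to 4, against 7.44, 7.74, 7.29 and 8.32 CPM in controls 1 to 4. Bigenic library 2 lay closest to the controls, and the groups did not overlap. The log2 fold change was -0.99 ± 0.23 (SE, edgeR adjusted p = 0.00561).

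Other voltage-gated members missed the threshold with all libraries and passed it when 1 was left out. Kcnq3, a subunit of the M-current that restrains repetitive firing, had 7.90, 11.4, 6.04 and 5.95 CPM in bigenic libraries 1 to 4, against 5.69, 5.38, 4.79 and 6.08 CPM in controls 1 to 4 (log2 difference 0.51 ± 0.20 SE, edgeR adjusted p = 0.0543). Bigenic library 2 was the highest and the groups overlapped. Kcnq3 was called higher without bigenic library 3 (0.61, adjusted p = 0.0325) and without bigenic library 4 (0.62, adjusted p = 0.0337). It was not called without bigenic library 2 (0.27, adjusted p = 0.146) or without controls 2 and 3 (0.41, adjusted p = 0.285). Kcna5, a scarce relative of Kcna1, had 1.23, 1.16, 0.60 and 1.03 CPM in bigenic libraries 1 to 4, against 0.30, 0.26, 0.14 and 1.00 CPM in controls 1 to 4 (log2 difference 1.23 ± 0.49 SE, adjusted p = 0.0601). Control library 4 alone was within the bigenic range, and without it Kcna5 was called higher (2.10, adjusted p = 0.00177). Kcna5 was not called without controls 2 and 3 (0.63, adjusted p = 0.365) or with the Ttr covariate (0.083, adjusted p = 0.909). The 3 Kcns genes, silent modifiers of Kcnb channels like Kcng4, had log2 differences between -0.42 and 0.33 and mean levels between 0.75 and 3.14 FPKM.

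**Figure D2:**
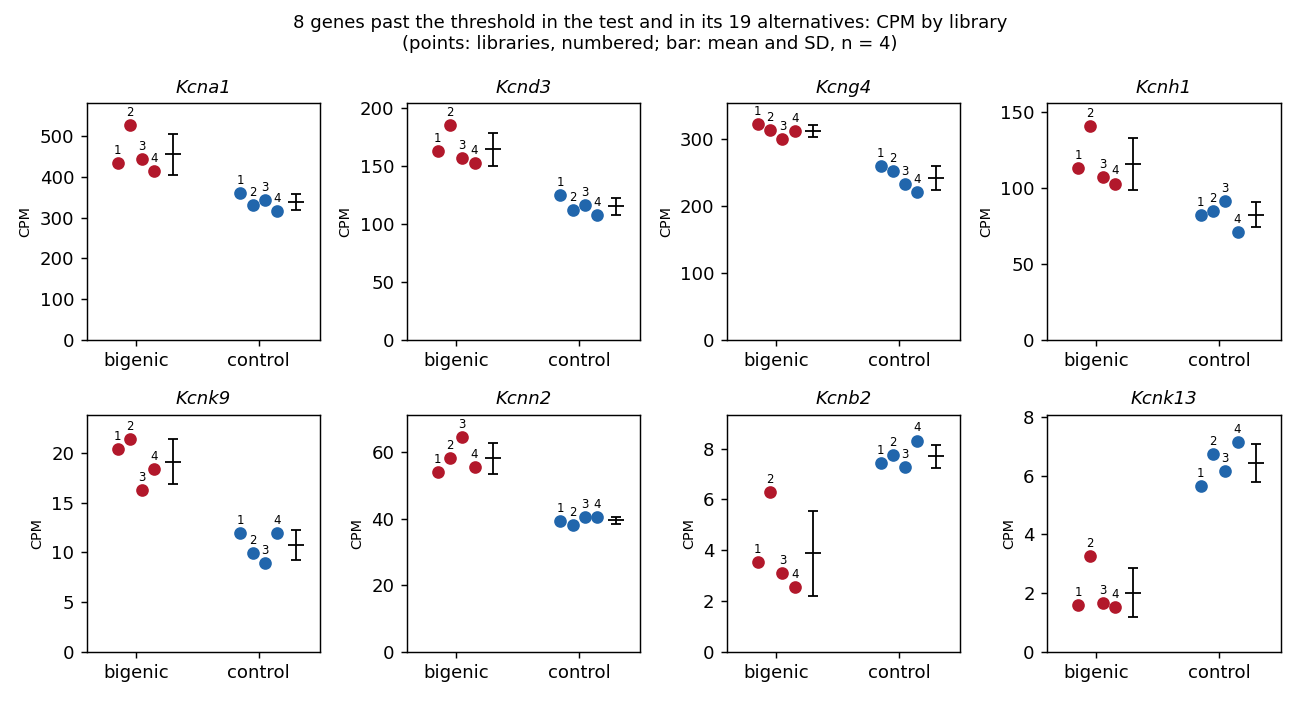
CPM in each of the 4 bigenic (left, red) and 4 control (right, blue) libraries for the 8 genes called in the test and in all 19 alternatives, with the mean and SD (n = 4). For each gene the 2 groups do not overlap, the first 6 being higher and Kcnb2 and Kcnk13 lower in bigenic cerebellum.

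Two-pore domain channels included the largest difference in each direction among the 8 genes called in all alternatives. Kcnk9 (chr15:72501089-72546340), which encodes the TASK3 leak channel of granule cells, had 20.4, 21.5, 16.3 and 18.4 CPM in bigenic libraries 1 to 4, against 11.98, 9.95, 8.98 and 11.98 CPM in controls 1 to 4. The groups were apart, with a log2 fold change of 0.84 ± 0.13 (SE, edgeR adjusted p = 0.000391). Its relative Kcnk3, the TASK1 channel, averaged 61.5 ± 9.94 CPM in bigenic and 58.5 ± 8.82 in control libraries (adjusted p = 0.669). Kcnk9 made up 49.6% ± 2.74 of the summed FPKM of the pair in bigenic libraries and 36.7% ± 4.81 in controls. Kcnk5, the TASK2 channel, was scarce and higher, at 2.36 ± 0.49 CPM in bigenic and 1.42 ± 0.36 in control libraries (log2 fold change 0.73 ± 0.24 SE, adjusted p = 0.0253). The Kcnk5 call was lost without bigenic library 2 (0.65, adjusted p = 0.054), bigenic library 4 (0.65, adjusted p = 0.0755), control library 1 (0.66, adjusted p = 0.0609) or control library 4 (0.60, adjusted p = 0.0624).

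Kcnk13 (chr12:99964499-100062682), which encodes the THIK1 channel best known in mouse microglia, had 1.60, 3.27, 1.68 and 1.53 CPM in bigenic libraries 1 to 4, against 5.67, 6.74, 6.18 and 7.17 CPM in controls 1 to 4. Bigenic library 2 was the highest of its group, and all 4 bigenic libraries were below every control. Kcnk13 fell by 1.67 ± 0.23 on the log2 scale (SE, edgeR adjusted p = 0.00024), and by 2.01 without bigenic library 2 (adjusted p = 1.1e-05). Of 10 microglia and macrophage markers, 4 were lower and 1 was higher, and their summed level was between 145 and 177 CPM in bigenic and between 190 and 222 in control libraries. Of all genes tested 22.9% were lower and 21.4% higher, or 44.3% in either direction, so the share of these markers called was close to that of all genes. P2ry12 averaged 8.42 ± 1.31 CPM in bigenic and 17.9 ± 3.16 in control libraries, and Cx3cr1 and Mrc1 were also lower. Cd163 was higher, while C1qa, C1qb, Csf1r, Tmem119 and Trem2 did not pass the test. The part of these cells in the Kcnk13 result was not tested.

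The other 7 two-pore genes did not pass the test. Kcnk1, the TWIK1 channel and the most abundant member of all at 130 FPKM, averaged 289 ± 24.1 CPM in bigenic and 311 ± 14.7 in control libraries, a log2 difference of -0.11 ± 0.08 (SE, edgeR adjusted p = 0.28). Kcnk10, the stretch-sensitive TREK2 channel, averaged 116 ± 5.55 CPM in bigenic and 121 ± 7.45 in control libraries (adjusted p = 0.553). Kcnk6 and Kcnk12 had log2 differences of 0.32 and 0.32 (adjusted p = 0.244 and 0.282).

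Inward rectifiers of the Kcnj3, Kcnj6 and Kcnj9 group are opened by G protein beta-gamma subunits below inhibitory receptors. Kcnj9 (chr1:172320501-172329318) had 100.3, 86.0, 41.2 and 76.8 CPM in bigenic libraries 1 to 4, against 145, 136, 123 and 124 CPM in controls 1 to 4. Every bigenic library was below every control, and bigenic library 3 was the lowest. Kcnj9 fell by 0.79 ± 0.21 on the log2 scale (SE, edgeR adjusted p = 0.012). The Kcnj9 call was lost without controls 2 and 3 (-0.82, adjusted p = 0.0504), with the Ttr covariate (-0.72, adjusted p = 0.116) and on unfiltered counts. Kcnj6 averaged 65.1 ± 4.24 CPM in bigenic and 57.4 ± 2.2 in control libraries and did not pass the test (adjusted p = 0.061), and Kcnj3 averaged 76.4 ± 2.46 and 84.1 ± 4.28 CPM (adjusted p = 0.117).

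Kcnj9 made up 36.4%, 31.7%, 18.5% and 30.4% of the summed FPKM of the 3 genes in bigenic libraries 1 to 4, against 42.6%, 41.8%, 38.2% and 40.7% in controls 1 to 4. The groups did not overlap. Summed over all 9 inward rectifiers, FPKM, which carry no TMM scaling, were 119 ± 12.1 in bigenic and 153 ± 10.7 in control libraries. Of these sums Kcnj9 accounted for 22.7 ± 7.71 and 41.5 ± 3.27 and the choroid plexus gene Kcnj13 for 2.41 ± 0.13 and 10.9 ± 9.24. Kcnj12 and Kcnj2, strong rectifiers of the Kir2 type, had log2 differences of 0.17 ± 0.09 and -0.55 ± 0.27 (SE, edgeR adjusted p = 0.141 and 0.115). Kcnj8 and Kcnj11, pore subunits of ATP-sensitive channels, had log2 differences of 0.06 each (adjusted p = 0.717 and 0.73).

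**Figure D3:**
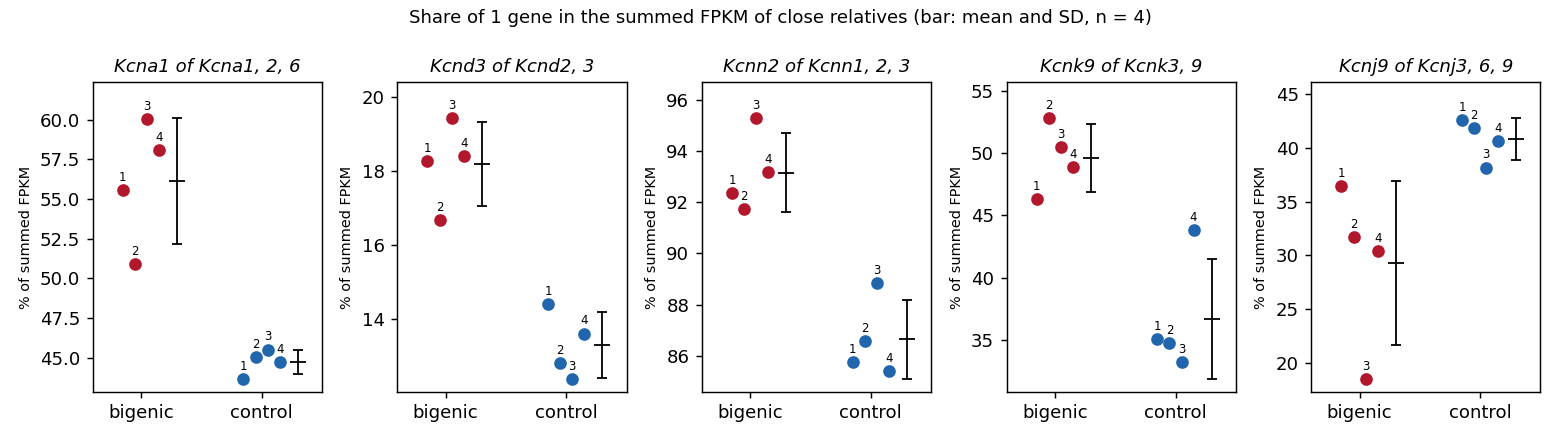
Share of 1 gene in the summed FPKM of close relatives in each bigenic (left, red) and control (right, blue) library, with the mean and SD (n = 4); the y axes do not start at 0. Kcna1, Kcnd3, Kcnn2 and Kcnk9 take a larger share and Kcnj9 a smaller share in all bigenic libraries than in any control.

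Among calcium- and sodium-activated channels Kcnn2 and Kcnt1 rose and Kcnn1 fell. Kcnn2 (chr18:45268860-45686024), the SK2 channel that shapes the afterhyperpolarisation and is prominent in Purkinje cells, had 54.1, 58.3, 64.5 and 55.4 CPM in bigenic libraries 1 to 4, against 39.2, 38.1, 40.4 and 40.4 CPM in controls 1 to 4. The groups did not overlap, and the controls varied little (39.5 ± 1.07 CPM, SD, n = 4). The log2 fold change was 0.56 ± 0.08 (SE, edgeR adjusted p = 0.000232). Kcnn1, the SK1 channel, averaged 6.84 ± 1.23 CPM in bigenic and 9.75 ± 1.38 in control libraries, and fell by 0.51 ± 0.16 on the log2 scale (SE, adjusted p = 0.0198). That call missed the threshold without control library 1 (-0.46, adjusted p = 0.0502) and without control library 4 (-0.46, adjusted p = 0.0533). Kcnn3, the SK3 channel, was 2.90 ± 1.11 CPM in bigenic and 4.29 ± 0.64 in control libraries (adjusted p = 0.0707), and without bigenic library 2 it fell by 0.85 on the log2 scale (adjusted p = 0.00305). Kcnn2 took 93.1% ± 1.54 of the summed FPKM of the 3 SK genes in bigenic libraries and 86.7% ± 1.54 in controls.

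Kcnt1, the sodium-activated Slack channel, averaged 175 ± 28.9 CPM in bigenic and 137 ± 15.4 in control libraries (log2 fold change 0.35 ± 0.12 SE, edgeR adjusted p = 0.0299). Its groups overlapped, and the call was lost in 11 of 19 alternatives. These included scaling by library size alone, the FPKM analyses and the Ttr covariate. The call was also lost without bigenic library 1 (0.32, adjusted p = 0.0737) or bigenic library 2 (0.25, adjusted p = 0.0709). The same held without control library 2 (0.37, adjusted p = 0.0574), control library 3 (0.31, adjusted p = 0.0863) or control library 4 (0.30, adjusted p = 0.0834), and without controls 2 and 3 together (0.31, adjusted p = 0.184). Kcnma1, the pore of the large-conductance BK channel, averaged 154 ± 23.7 CPM in bigenic and 150 ± 11.9 in control libraries (adjusted p = 0.753). Its log2 difference of 0.04 ± 0.10 was -0.04 when libraries were scaled by size alone. Kcnu1, the pore known from sperm, was at 0.80 ± 0.10 CPM in bigenic and 0.87 ± 0.24 in control libraries (adjusted p = 0.75).

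Of the auxiliary subunits, Kcnmb4, the neuronal beta subunit of BK channels, had 78.5, 71.1, 66.8 and 71.8 CPM in bigenic libraries 1 to 4, against 65.1, 59.5, 56.5 and 56.1 CPM in controls 1 to 4. All bigenic libraries were above all controls, and the log2 fold change was 0.28 ± 0.08 (SE, edgeR adjusted p = 0.0132). The Kcnmb4 call was lost in 6 of 19 alternatives, among them those without controls 2 and 3 (0.25, adjusted p = 0.15) and with scaling by library size alone (0.20, adjusted p = 0.0694). Kcnab3, a beta subunit of Kcna channels, was 71.4 ± 4.99 CPM in bigenic and 57.2 ± 6.89 in control libraries (log2 fold change 0.32 ± 0.09 SE, adjusted p = 0.0162). The Kcnab3 call was lost in 8 of 19 alternatives, among them scaling by library size alone, the FPKM analyses and the Ttr covariate. It was also lost without bigenic library 4 (0.28, adjusted p = 0.056) and without control library 3 (0.27, adjusted p = 0.0546). Without controls 2 and 3 together the difference was 0.22 (adjusted p = 0.203). Kcne4, a single-pass subunit that can inhibit Kcnq1 and Kcna channels, was scarce, with 0.97, 2.00, 3.26 and 2.70 CPM in bigenic libraries 1 to 4 against 0.81, 1.18, 1.14 and 0.87 CPM in controls 1 to 4. Bigenic library 1 was within the control range, and the log2 fold change was 1.16 ± 0.33 (SE, adjusted p = 0.0136). With the Ttr covariate Kcne4 was not called (1.35, adjusted p = 0.105).

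Kcnip3, a calcium-binding subunit of Kcnd channels also known as DREAM and calsenilin, averaged 94.0 ± 13.9 CPM in bigenic and 115 ± 6.25 in control libraries, and fell by 0.29 ± 0.10 on the log2 scale (SE, edgeR adjusted p = 0.0339). The Kcnip3 call was lost without any 1 of bigenic libraries 1, 3 and 4 or controls 1, 2 and 3, at adjusted p = 0.0567, 0.0729, 0.0952, 0.0716, 0.0757 and 0.0785, and without controls 2 and 3 together (-0.26, adjusted p = 0.196). The abundant subunits Kcnab1 (83.3 FPKM) and Kcnip4 (76.8 FPKM) had log2 differences of 0.17 ± 0.07 and 0.15 ± 0.09 (SE, adjusted p = 0.0679 and 0.182). Kcnab1 was above every control in all 4 bigenic libraries and was called without bigenic library 2 (adjusted p = 0.0288), and Kcnip4 was called without control library 3 (adjusted p = 0.0459).

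Kcnj13 and Kcne2 are choroid plexus genes: the epithelium of the plexus carries the Kir7.1 rectifier encoded by Kcnj13 and the Kcne2 subunit on its apical side. Kcnj13 had 3.48, 3.14, 3.35 and 3.45 CPM in bigenic libraries 1 to 4, against 5.05, 21.8, 27.8 and 2.89 CPM in controls 1 to 4. Kcne2 had 0.40, 0.24, 0.57 and 0.39 CPM in bigenic libraries 1 to 4, against 1.80, 13.3, 19.6 and 0 CPM in controls 1 to 4, where the count of 0 allows up to 0.0747 CPM (3 counts). Controls 2 and 3 stood far above all other libraries for both genes, and control 4 was below every bigenic library. Kcnj13 fell by 2.10 ± 0.69 on the log2 scale and Kcne2 fell by 4.43 ± 1.43 (SE, edgeR adjusted p = 0.0407 and 0.0388).

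Without controls 2 and 3, the log2 fold change was -0.24 for Kcnj13 (adjusted p = 0.483) and -1.16 for Kcne2 (adjusted p = 0.39). Neither was called when any 1 bigenic library or control library 2 was left out (adjusted p between 0.0755 and 0.107), and Kcnj13 was not called without control library 3 (adjusted p = 0.0591). Of 11 choroid plexus markers tested 10 were lower, and Clic6 did not pass the test. The summed level of the list was between 162 and 231 CPM in bigenic libraries, and was 666, 3839, 4870 and 294 CPM in controls 1 to 4. The part of choroid plexus tissue in the other members' results was not tested. With Kcnj13 and Kcne2 set aside, 21 of 72 members tested (29.2%) were called.

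**Figure D4:**
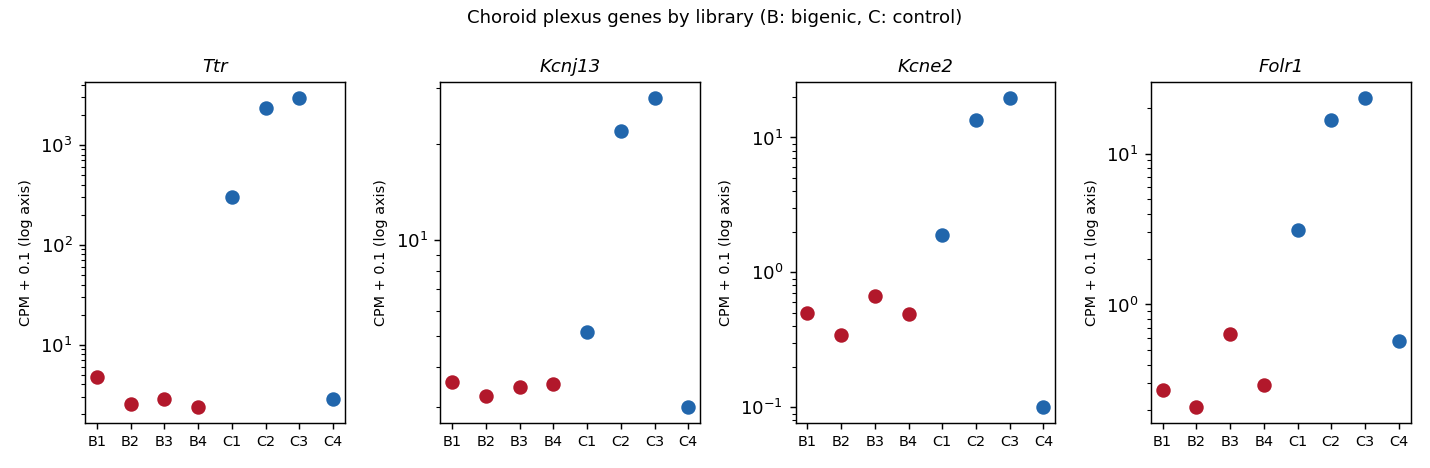
CPM + 0.1 on a log axis of Ttr, Kcnj13, Kcne2 and Folr1 in bigenic (B1 to B4) and control (C1 to C4) libraries. In all 4 genes C2 and C3 are highest, C1 is next, and C4 is within or below the range of the bigenic libraries.

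Control library 4 held more than 2 times the CPM of any other library for 5 members: Kcnc2, Kcnh5, Kcnh8, Kcnq5 and Kcnt2. Kcnc2, a fast delayed rectifier, had 5.28, 6.03, 6.43 and 5.48 CPM in bigenic libraries 1 to 4, against 4.86, 6.26, 3.71 and 32.6 CPM in controls 1 to 4. Kcnh5, a further EAG channel, had between 1.11 and 1.86 CPM in bigenic libraries, against 1.59, 1.31, 1.75 and 10.8 CPM in controls 1 to 4. Apart from that 1 library the groups overlapped for both. Without control library 4 the log2 fold change was 0.23 for Kcnc2 (adjusted p = 0.342) and 0.03 for Kcnh5 (adjusted p = 0.923), against -1.03 and -1.29 with it (adjusted p = 0.26 and 0.156). Kcnt2, the Slick channel, was 3.41 CPM in that library and between 0.31 and 1.11 CPM in the others. Kcnc2, Kcnh5 and Kcnt2 were called lower when controls 2 and 3 were left out, which kept control library 4 in the control group. The screen for single high libraries was set up after values had been seen, and its relation to Slc17a6 was not tested.

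Levels spanned 0.0789 to 130 FPKM over the 75 members, and 28 of them were above 10 FPKM. The 16 higher members had a median of 16.5 FPKM, the 7 lower members of 2.72 FPKM and the 51 not called of 1.75 FPKM. After Kcnk1 the most abundant were Kcnd2 (103 FPKM), Kcnab1 (83.3 FPKM), Kcnip4 (76.8 FPKM) and Kcng4 (72.5 FPKM), and of these 5 Kcng4 alone was called. Summed FPKM of the 60 pore-forming members was 810 ± 70.0 in bigenic and 812 ± 34.7 in control libraries. By class the sums were 403 ± 56.9 in bigenic and 367 ± 19.1 in control libraries for voltage-gated subunits, and 76.9 ± 7.45 and 66.4 ± 3.395 for calcium- or sodium-activated channels. Two-pore channels summed to 212 ± 12.1 FPKM in bigenic and 227 ± 8.44 in control libraries. These sums carry no TMM scaling. The TMM factors were 0.95 to 0.98 in bigenic and 1.01 to 1.05 in control libraries, so small group differences in the sums, or their absence, depend on the scaling. Bigenic library 2 held the highest bigenic value in 39 of 75 members.

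**Figure D5:**
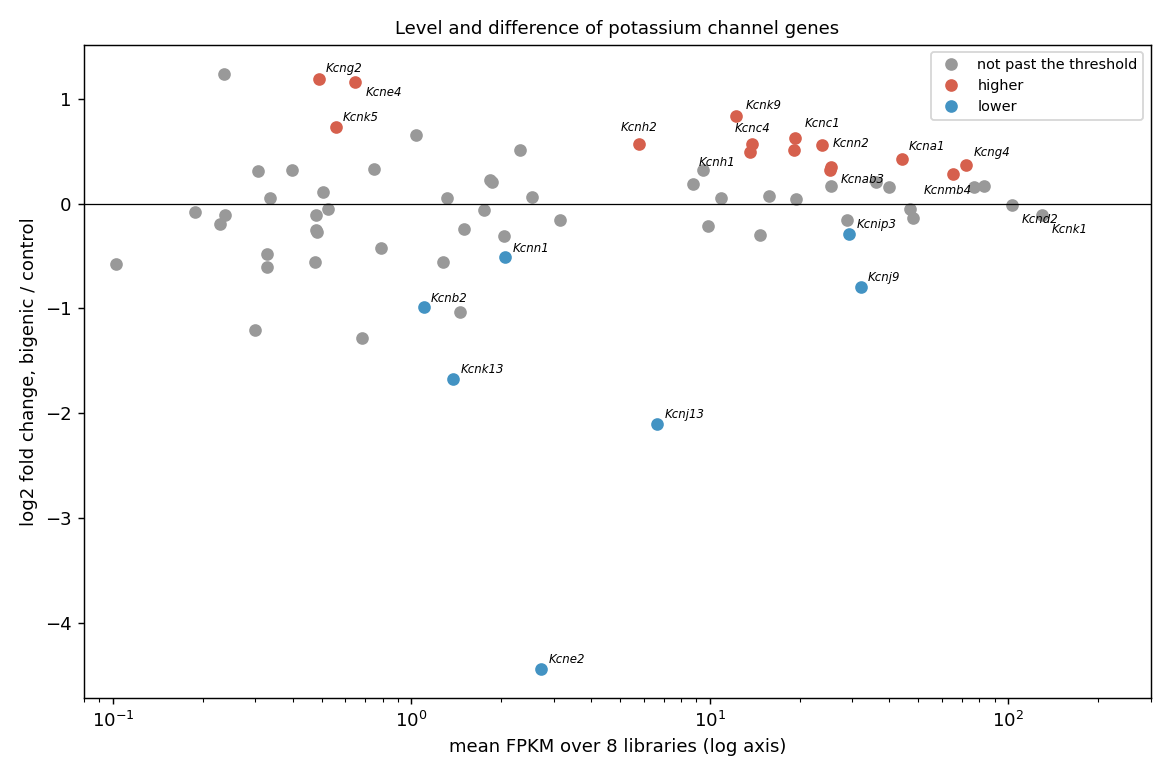
Mean FPKM over the 8 libraries (log axis) against log2 fold change (bigenic over control) for tested members, coloured by the result of the edgeR test. Most of the higher members drawn lie above 10 FPKM, and of the 7 lower members 2 (Kcnip3 and Kcnj9) do.

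Low counts and overlapping genes limit some members. The noncoding Kcnq1ot1, an imprinted antisense transcript of Kcnq1, was at 43.8 ± 9.77 CPM in bigenic and 40.6 ± 2.48 in control libraries, and Kcnd3os, which lies opposite the start of Kcnd3, at 0.47 ± 0.22 and 0.57 ± 0.20 CPM (edgeR adjusted p = 0.513 and 0.595). Kcnmb1 met the member rule with 10 or more counts in 4 libraries but was too scarce to be tested. Just below the rule were Kcnj5 and Kcnmb4os1, with 10 or more counts in 2 libraries each, and of the 19 genes below it Kcnj1 had no count in any library, which allows up to 0.0102 CPM. Kcnv1, also below the rule, had 60 counts in control library 4 and at most 7 elsewhere. By the GENCODE M21 annotation, 26 of the 75 members share exonic sequence with a gene on the opposite strand. Of the called members these are Kcnab3, Kcnd3, Kcng2, Kcnj13, Kcnj9, Kcnmb4, Kcnn1 and Kcnn2. Whether the counting used strand is not given in the sources used here, so reads of these 8 genes and of their antisense partners may not be separate.

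Genes that act with these channels were counted in 5 lists, each against the 44.3% called over all genes. Of 4 HCN channels, which carry the hyperpolarisation-activated cation current, 0 passed the edgeR test, 0 passed DESeq2, and 1 had an unadjusted p under 0.05 and was called lower by limma on FPKM. This was Hcn3, at 2.68 ± 1.03 CPM in bigenic and 3.98 ± 0.51 in control libraries (adjusted p = 0.071), and without bigenic library 2 Hcn3 (adjusted p = 0.00427) and Hcn4 (adjusted p = 0.0251) were lower. Hcn2 was called higher without control library 1 (adjusted p = 0.0302). Of 10 channel-bound accessory proteins 1 rose and 1 fell. Lrrc55, a BK channel gamma subunit, was 0.70 ± 0.18 CPM in bigenic and 2.05 ± 0.55 in control libraries, a fall of 1.54 ± 0.26 on the log2 scale (SE, adjusted p = 0.000745).

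Of 18 proteins that cluster or anchor axonal channels 3 rose and 4 fell, or 38.9%. Cntnap2, which holds Kcna channels beside the node of Ranvier, was higher by 0.36 ± 0.08 on the log2 scale, and Lgi2 by 0.46 ± 0.07 (SE, edgeR adjusted p = 0.00517 and 0.000598). Lgi4, a secreted glial ligand, was lower by 0.47 ± 0.08 and Cntn1, an axonal adhesion molecule, by 0.28 ± 0.07 (SE, adjusted p = 0.00113 and 0.00938). Without controls 2 and 3 Cntnap2 (adjusted p = 0.0934) and Cntn1 (adjusted p = 0.139) missed the threshold. Adam11 was also higher and Adam22 and Dlg3 lower, and these 3 calls were each lost in 5 or more of the 8 analyses with 1 library left out.

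Of 7 cation-chloride cotransporters tested 2 rose, Slc12a2 (the NKCC1 potassium importer) by 0.25 ± 0.07 and Slc12a9 by 0.55 ± 0.14 on the log2 scale (SE, edgeR adjusted p = 0.0137 and 0.00881). Without controls 2 and 3 both missed the threshold, at adjusted p = 0.0631 and 0.0724. Kinases and a ligase that regulate ion transporters made up the last list, in which 4 of 10 rose and 1 fell. Sgk1, a glucocorticoid-inducible kinase, had 275, 443, 564 and 422 CPM in bigenic libraries 1 to 4, against 104, 141, 123 and 100.2 CPM in controls 1 to 4, with no overlap between groups. Sgk1 was higher by 1.87 ± 0.19 and Sgk3 by 1.21 ± 0.14 on the log2 scale (SE, adjusted p = 6.07e-05 and 8.61e-05). Wnk2 was higher by 0.96 ± 0.19 and Oxsr1, a kinase below the WNK enzymes, was lower by 0.50 ± 0.08 (SE, adjusted p = 0.0023 and 0.000755). Wnk4, below 1.2 CPM in every library, was higher by 0.73 ± 0.25 (SE, adjusted p = 0.0323), a call lost in 5 of the 8 analyses with 1 library left out.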

How the data were processed

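RNA of whole cerebellum from 8 mice was sequenced, 4 per group, and each library is 1 mouse per the labels. Reads were aligned and counted against build mm10, with STAR and HTSeq named in the submitters' processing notes, their versions being not given in the sources used here. The 2 descriptions of library preparation in the labels differ, 1 being strand-specific. The authors deposited a table of whole read counts per gene (24060 rows, 2 symbols occurring more than once) and a table of FPKM values. The deposited FPKM equal counts divided by the column total and a fixed length per gene, checked to under 0.1% on 14073 of 14077 genes with 200 or more counts. Columns that matched no label numbered 0.

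Counts were tested in R 4.3.3 with edgeR 4.0.16 (filterByExpr, TMM, robust quasi-likelihood fit), bigenic against control, over 15186 genes, with Benjamini-Hochberg adjustment over all of them and a threshold of 0.05. Every adjusted p printed comes from this test unless an alternative is named. Alternatives used DESeq2 1.42.0, limma 3.58.1 on log2(FPKM + 1) or log2(FPKM + 0.1), other scalings and filters, a replicate block, a Ttr covariate and libraries left out, 19 in all. Low counts are less certain than high ones, and intervals for counts of 0 (3 counts) cover counting error only. The test was tried on simulated counts first, where the share of false calls among genes called was somewhat above the nominal threshold. Coordinates are from GENCODE M21 (GRCm38, the build called mm10), which matched 96 of 96 symbols, and promoters from RefSeq (GRCm38.p6).

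The members and all lists were chosen with earlier results of these data known. Per class, the 6 members with the smallest p and the 3 with the highest FPKM were named, besides Kcnj13, Kcne2 and noncoding transcripts, and per list up to 4 members with the smallest p. Other called genes, and members that stood out in 1 library or beside a relative, were named after their values were seen. Kcnj10 and Kcnj16, left out of the members, had log2 differences of 0.39 and 0.14 (adjusted p = 0.125 and 0.33). Some genes of the counts are not reported here by name and are not drawn.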

Additional observations from a re-analysis of the deposited data

Results flagged for a closer look

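Over the 37 members named by the rule, 74 pairs of a gene and a group were screened, and 7 held a library far from the other 3 of its group, with a gap above the critical value of Dixon's test, which chance exceeds in about 1 of 20 groups. Control library 4 accounted for 4 of them. In that library Kcnj2 was 12.5 CPM (6.56 to 6.88 in the other controls), Kcnt2 was 3.41 CPM (0.97 to 1.11) and Kcnn3 was 5.26 CPM (3.95 to 4.02), whereas Kcnj12 was 103 CPM (119 to 123 in the other controls). Bigenic library 2 accounted for 2, with Kcnk13 at 3.27 CPM (1.53 to 1.68 in the other bigenic libraries) and Kcnq1ot1 at 58.3 CPM (37.8 to 41.0). Kcnd3os was 0.86 CPM in control library 1 (0.44 to 0.50 in the other controls).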

How the results depend on the processing

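Fold changes of 73 named genes were recomputed under 19 alternatives, and in 1144 comparisons direction and side of the threshold were unchanged, in 154 a call was lost, in 60 a call was gained and in 27 the sign turned. The cause of these changes was not tested. At these depths genes under about 1 CPM rest on few counts. The labels state no pairing of mice by replicate number. Deviations from the group means correlated at 0.329, 0.0239, 0.166 and 0.0625 between same-numbered libraries. Differently numbered libraries were not compared, so these values cannot show whether mice were paired. With the replicate block 7443 genes were called, 21 of the 23 member calls were kept and 11 were new; the block counts were 2 lower voltage-gated, 3 lower calcium- or sodium-activated, 5 higher and 1 lower auxiliary, 1 lower HCN and 1 lower cotransporter gene.

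Leaving out 1 library gave 2544 to 3588 higher and 2737 to 3823 lower genes in all, 13 to 17 higher and 4 to 8 lower members, and by class 7 to 11 and 1 to 3 (voltage-gated), 0 to 1 and 1 to 2 (inward rectifier), 1 to 2 and 1 to 1 (two-pore), 1 to 2 and 0 to 2 (calcium or sodium activated) and 2 to 4 and 0 to 2 (auxiliary). For the lists it gave 0 to 1 and 0 to 2 (HCN channels), 1 to 1 and 1 to 2 (channel-bound accessory proteins), 2 to 4 and 2 to 7 (channel clustering and axonal anchoring), 2 to 2 and 0 to 1 (cation-chloride cotransport) and 3 to 4 and 1 to 1 (transporter regulating kinases). The median log2 fold change ranged from -0.012 to 0.0036 over all genes, 0.027 to 0.14 over members, 0.074 to 0.34 (voltage-gated), -0.16 to -0.012 (inward rectifier), 0.092 to 0.24 (two-pore), -0.27 to 0.00083 (calcium or sodium activated) and 0.12 to 0.16 (auxiliary).

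With controls 2 and 3 left out, 1619 genes were higher and 1775 lower, with 9 higher members, 5 higher and 3 lower voltage-gated, 0 lower inward rectifier, 1 higher and 2 lower calcium- or sodium-activated, and 1 higher and 0 lower auxiliary genes. The lists had 0 higher accessory, 1 higher and 1 lower clustering and 0 higher cotransport genes. With log2 CPM of Ttr as a covariate, 1269 genes were higher and 1658 lower (19.3% of all), with 8 higher and 12 lower members, 4 and 6 voltage-gated, 1 and 2 calcium- or sodium-activated and 1 and 1 auxiliary, 0 higher accessory, 1 higher and 0 lower clustering, 0 higher cotransport and 2 higher kinase genes, and medians of 0.15 (inward rectifier) and -0.33 (calcium or sodium activated). Ttr was low in all 4 bigenic libraries, so this covariate and the group are largely confounded.

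Scaling by library size alone moved the median of all genes to -0.089 on the log2 scale and that of the members to -0.030, with -0.22 (inward rectifier), 0.053 (two-pore) and 0.069 (auxiliary). It called 11 higher and 11 lower members, 2 lower voltage-gated, 1 higher and 3 lower calcium- or sodium-activated, 1 higher auxiliary, 1 lower HCN, 1 higher and 2 lower cotransport and 2 lower kinase genes. On log2(FPKM + 0.1) the medians were -0.087 (all genes), -0.014 (members), -0.22 (inward rectifier), 0.076 (two-pore) and 0.076 (auxiliary), and on log2(FPKM + 1), with or without a filter, -0.060 (all genes), -0.012 (members), 0.034 (two-pore) and 0.075 (auxiliary). Both filtered FPKM analyses called 3 lower voltage-gated, 1 higher and 2 lower calcium- or sodium-activated, 1 higher and 1 lower auxiliary, 1 lower HCN, 1 higher and 1 lower cotransport and 2 lower kinase genes. Unfiltered log2(FPKM + 1) called 9 higher members, 2 lower voltage-gated, 1 higher two-pore, 1 higher calcium- or sodium-activated, 0 higher and 1 lower auxiliary and 0 higher accessory genes. Unfiltered counts gave 4 lower members, 0 lower inward rectifier and 1 lower auxiliary genes and a median of -0.024 over all genes. DESeq2 called 1 higher inward rectifier and 2 lower calcium- or sodium-activated genes, and the median of all genes was 0.0041 with DESeq2 and 0.0066 with RLE factors.

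Signs turned in these cases. With the Ttr covariate Kcne2 was 4.70 (adjusted p = 0.00389), Kcnj13 0.48, Kcnd2 0.12, Kcnk10 0.042 and Kcnq1ot1 -0.0030. Kcnd2 was also 0.057 without controls 2 and 3. Kcnk3 and Kcnma1 were -0.0085 and -0.040 by library size alone, -0.013 and -0.049 on log2(FPKM + 0.1) and -0.012 and -0.046 on log2(FPKM + 1), filtered or not. With 1 library left out, Kcnd2 ranged from -0.14 to 0.040, Kcnk3 from -0.032 to 0.17, Kcnma1 from -0.063 to 0.11, Kcnq1ot1 from -0.059 to 0.17 and Kcnd3os from -0.58 to 0.016. Without control library 4 Kcnc2, Kcnh5, Kcnh8, Kcnq5 and Kcnu1 were 0.23, 0.034, 0.42, 0.29 and 0.035, and their lowest values with another library left out were -1.33, -1.57, -0.86, -0.44 and -0.27. Apart from Kcne2 and Kcnj13, none of these genes was called in the test with all 8 libraries.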
